A study of Mus musculus with 14 samples.

Results

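The genes described here are 46 cell cycle and DNA replication genes in RNA-seq of lung group 2 innate lymphoid cells (ILC2s) of the mouse. They were chosen by name for their known roles in the cell cycle, with earlier results of these data known. All 46 were found among the 53278 genes of the raw count and TPM tables. The list was split into 23 genes of the G1/S transition and DNA replication and 23 genes of G2 and mitosis (G2/M). All 46 passed the filter on low counts in both comparisons, and the gene symbols are those of the tables. ILC2s are tissue-resident lymphocytes without an antigen receptor that respond to epithelial alarmins such as IL-33 and IL-25.

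The series compared lung ILC2s in 2 experiments of 14 libraries in all. In the stimulation experiment, ILC2s of 8 female B6 mice were cultured without IL-33 (unstimulated, n = 4) or with 20 ng/mL IL-33 for 24 h (IL-33 stimulated, n = 4). The design text gives 24 h of culture for both groups and also calls the unstimulated cells ex vivo, and the labels of those libraries give no time. If they were taken without culture, IL-33 and 24 h of culture cannot be told apart. In the Blimp-1 experiment, ILC2s of age-matched female ControlIL7RaCre mice (Control, n = 3) and Blimp-1IL7RaCre mice (Blimp-1-deficient, n = 3) were cultured for 72 h in IL-33 plus IL-25 (20 ng/mL of either cytokine), with IL-2 also in the medium by the study's methods. The mice were over 6 weeks old by the study's methods, and no exact age is given in the sources used here. Blimp-1, encoded by Prdm1, is a transcriptional repressor, and the floxed gene was deleted by a Cre driven by Il7r, which acts in all ILC subsets and also in T, B and NK cells. About 15000 live, lineage-, CD90.2+, CD3- cells were plated per sample. The design text has ILC2s sorted from individual mice, whereas legends in the paper give sorting samples of 2 pooled animals for the figures that hold the RNA-seq, so that 1 library may stand for more than 1 mouse. The first comparison sets IL-33 stimulated against unstimulated ILC2s, and the second sets activated ILC2s without Blimp-1 against activated Control ILC2s.

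Cells that divide pass from G1 into S phase when cyclin-dependent kinases inactivate the retinoblastoma proteins and free the E2F factors, which switch on the genes for origin licensing, replication forks and nucleotide supply. The origin recognition complex, Cdc6 and Cdt1 load the Mcm2 to Mcm7 helicase on DNA, Cdc45 and the GINS complex activate it, and the polymerases copy the DNA with Pcna as their sliding clamp. A second set of genes, for cyclins A and B, Cdk1, the spindle and the kinetochores, is switched on later by the MuvB complex with B-Myb and Foxm1. The transcripts of both sets are low in resting cells, and ILC2s are known to divide when alarmins activate them. In bulk RNA, a lower level of such a transcript can come from fewer dividing cells or from less RNA per dividing cell, and these cannot be told apart here.

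Some sequence words stood in unlike shares of the promoters of the 2 gene sets, which is shown first because the sets are reported apart below. The windows were taken from RefSeq on the build GRCm38.p6, from 250 bases before to 50 bases after the start of transcription. Windows were found for 20 of the 23 G1/S and replication genes and for 18 of the 23 G2/M genes. Both strands were searched for 4 E2F words (TTTCCCGC, TTTCGCGC, TTTGCCGC and TTTGGCGC), for the word TTTGAA of the cell cycle genes homology region (CHR), which the MuvB complex reads, and for CCAAT, the word of NF-Y. An E2F word stood in the window of 9 of the 20 G1/S and replication genes (45.0%), of 1 of the 18 G2/M genes (5.56%) and of 2.61% of 27025 genes. TTTGAA stood in 2 of the 20 (10%), in 13 of the 18 (72.2%) and in 20.2% of all genes, and CCAAT in 60%, 88.9% and 41.1%. In the 250 bases before the start alone, the shares with TTTGAA were 10%, 38.9% and 18.3%, so that many of these words of the G2/M genes lay just after the annotated start. These are matches of letters and not measured binding sites, and some E2F words overlap each other on the opposite strand in Mcm5 and Mcm6.

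The stretches around TTTGAA in 6 G2/M genes with large or small changes in the comparisons below are printed with 10 flanking bases on each side, 5′ to 3′ on the strand that reads the word, with the word in capitals.
Ccnb2 (chr9:70421535-70421560, minus strand): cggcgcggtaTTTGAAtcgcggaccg
Cenpf (chr1:189688069-189688094, minus strand): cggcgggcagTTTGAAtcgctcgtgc
Top2a (chr11:99024197-99024222, plus strand): cctagtttcaTTTGAAcctttatcta
Mki67 (chr7:135716462-135716487, minus strand): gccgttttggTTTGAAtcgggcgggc
Kif23 (chr9:61946782-61946807, minus strand): gattggcctgTTTGAAatgcgccggg
Cdk1 (chr10:69352912-69352937, minus strand): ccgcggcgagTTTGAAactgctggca

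The stretches around the E2F word nearest the start in 6 G1/S and replication genes are printed in the same way.
Cdt1 (chr8:122568037-122568064, plus strand): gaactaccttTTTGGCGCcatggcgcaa
Mcm5 (chr8:75109350-75109377, minus strand): ggctggacgtTTTGGCGCgaaagttctt
Mcm6 (chr1:128359735-128359762, minus strand): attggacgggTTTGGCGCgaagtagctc
Pola1 (chrX:93632276-93632303, plus strand): cgggagtgcaTTTGGCGCcctgtgatga
Cdc6 (chr11:98908003-98908030, minus strand): ccccaggcgaTTTCCCGCtctccaccgg
Uhrf1 (chr17:56304118-56304145, plus strand): ccgagtcgggTTTCGCGCgcccaggcgt

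For 2 genes of each set, the whole 250 bases before the start are shown on the strand of the gene, with E2F words, TTTGAA and CCAAT or their reverse complements in capitals, so that the number and spacing of the words can be seen.
Ccnb2 (chr9:70421555-70421804, minus strand): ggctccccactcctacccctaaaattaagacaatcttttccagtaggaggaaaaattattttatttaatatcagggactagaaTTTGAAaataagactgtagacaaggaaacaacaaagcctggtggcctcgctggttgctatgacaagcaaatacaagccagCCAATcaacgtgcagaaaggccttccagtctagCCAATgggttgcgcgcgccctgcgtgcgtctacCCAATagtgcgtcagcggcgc
Top2a (chr11:99024190-99024439, minus strand): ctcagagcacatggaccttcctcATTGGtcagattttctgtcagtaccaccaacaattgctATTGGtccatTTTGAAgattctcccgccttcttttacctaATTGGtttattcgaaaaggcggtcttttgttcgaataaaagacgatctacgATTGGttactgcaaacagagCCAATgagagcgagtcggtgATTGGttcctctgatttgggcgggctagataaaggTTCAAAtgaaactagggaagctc
Mcm5 (chr8:75109259-75109508, plus strand): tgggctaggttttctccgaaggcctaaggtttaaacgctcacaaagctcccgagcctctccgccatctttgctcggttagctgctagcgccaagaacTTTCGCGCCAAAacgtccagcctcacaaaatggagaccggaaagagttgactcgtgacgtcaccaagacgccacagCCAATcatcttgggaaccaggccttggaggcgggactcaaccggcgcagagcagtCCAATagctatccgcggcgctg
Mcm6 (chr1:128359706-128359955, minus strand): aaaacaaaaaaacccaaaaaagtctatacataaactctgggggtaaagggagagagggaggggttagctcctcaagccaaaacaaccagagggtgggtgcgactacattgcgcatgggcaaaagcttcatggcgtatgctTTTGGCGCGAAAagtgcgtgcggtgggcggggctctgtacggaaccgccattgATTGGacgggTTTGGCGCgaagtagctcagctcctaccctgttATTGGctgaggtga

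The 250 bases printed for Ccnb2 hold 3 CCAAT words and 1 TTTGAA word, and those printed for Top2a hold 6 CCAAT words and 2 TTTGAA words. The 250 bases printed for Mcm5 and for Mcm6 each hold a pair of overlapping E2F words and 2 CCAAT words, and those of Mcm6 hold a further E2F word.

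The libraries held 10470125 to 76448945 counts. Levels are given as CPM, counts scaled to library size by the TMM method, in the order of the replicate numbers, and tests are edgeR quasi-likelihood tests with p-values adjusted over all genes by Benjamini-Hochberg. Counting error was small for these genes, since the lowest member, Gins2, had 90 counts in Control replicate 2, 226 in IL-33 stimulated replicate 3 and 948 or more in every other library. These 2 libraries stood apart: log2 ratios between IL-33 stimulated replicate 3 and its group had an SD over genes of 1.79 to 1.87, against 0.393 to 0.513 for other pairs of that experiment, and Control replicate 2 had 72.4% of its counts on 4 loci and an SD of 1.5 to 1.58, against 0.396 to 0.488. Results are therefore given with and without them. Prdm1 was at 75.2, 92.8 and 74.0 CPM in Control and 14.6, 11.5 and 11.4 CPM in Blimp-1-deficient cells (log2 fold change -2.68, SE 0.15, adjusted p = 0.00441) and was lower in every Blimp-1-deficient library than in any Control library. The 10 ILC2 markers summed to 7239 to 7691 CPM in unstimulated, 4076 to 5154 in IL-33 stimulated, 4144 to 4903 in Control and 4214 to 4419 CPM in Blimp-1-deficient libraries, and NK cell markers summed to under 3 CPM in every library.

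**Figure D1:**
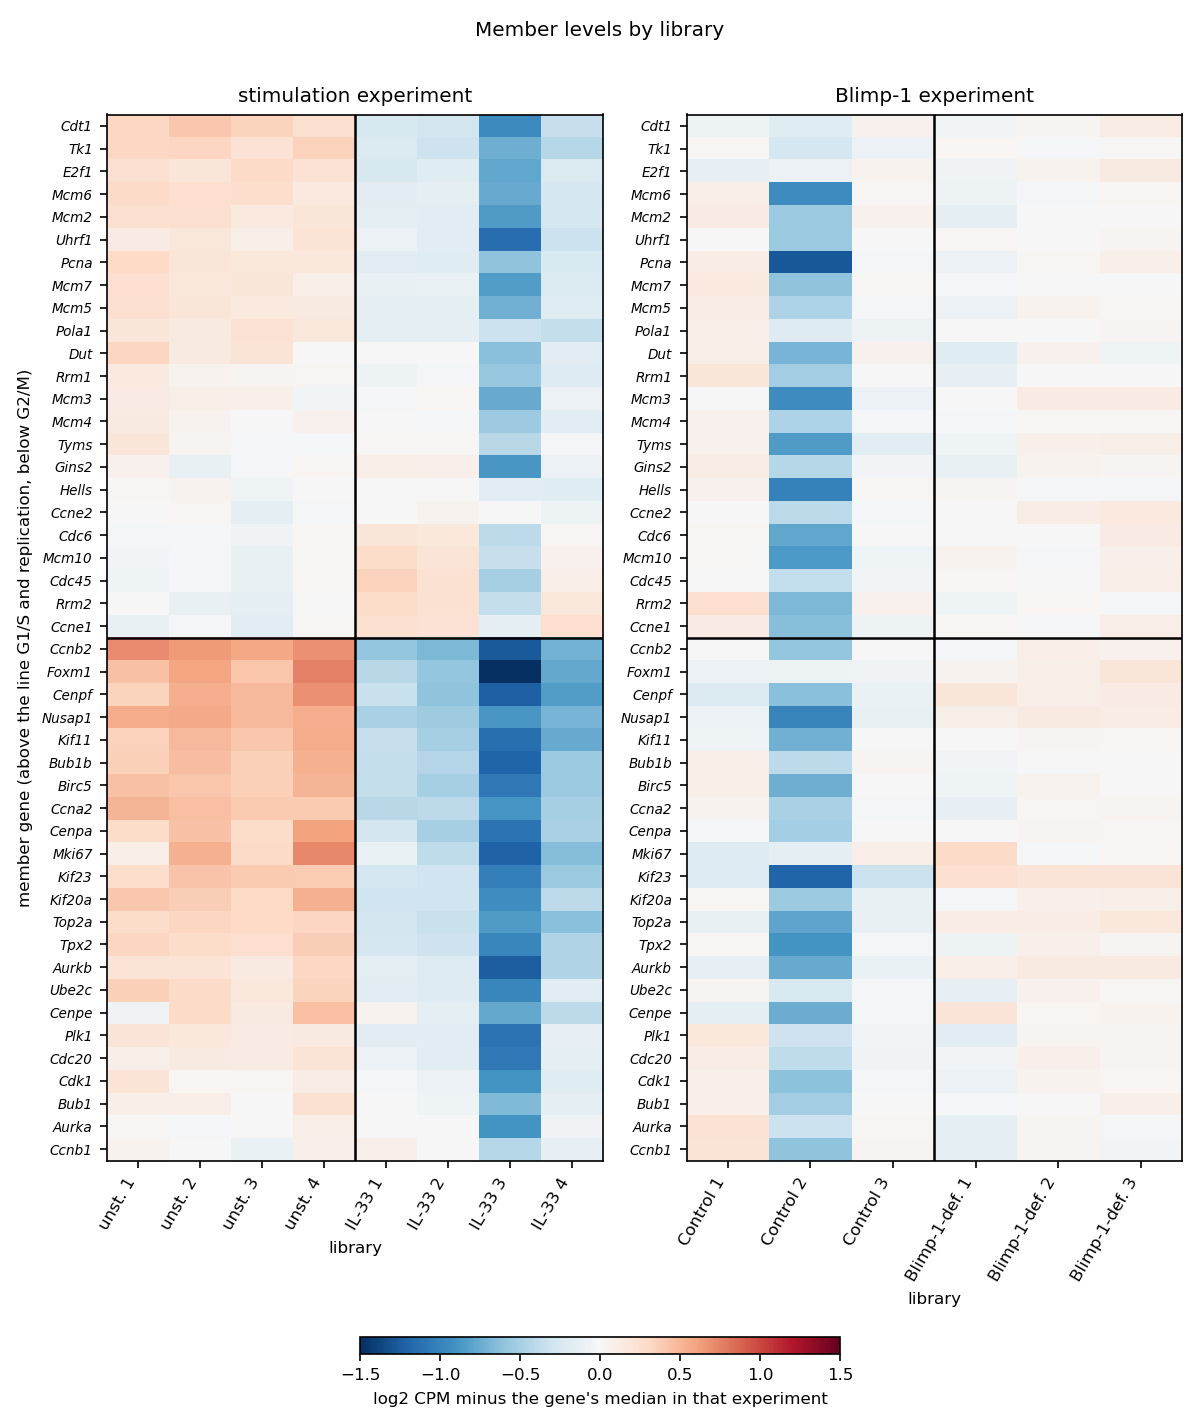
Level of each of the 46 genes in each library as log2 CPM minus the median of that gene within its experiment (colour), with genes in rows grouped into G1/S and replication and G2/M and the libraries of each experiment in columns. Nearly all G2/M rows are lower in the 4 IL-33 stimulated columns than in the 4 unstimulated columns, the G1/S rows differ less, and the columns of IL-33 stimulated replicate 3 and Control replicate 2 are the lowest of their groups for most rows.

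After 24 h with IL-33, ILC2s had lower levels of mitotic transcripts than unstimulated ILC2s, whose culture time is uncertain. Of the 23 G2/M genes, 15 fell and 0 rose, where 16.1% of the 15466 genes tested fell and 16.2% rose. The median log2 fold change of the 23 genes was -0.86, against 0.06 over all genes tested, and all 23 estimates were below 0. In 20 of the 23 genes every IL-33 stimulated library was below every unstimulated library, and 20.9% of all genes had that order. Those that fell were 1.55 to 2.71 times lower. IL-33 stimulated replicate 3 was the lowest library of its group for all 23 genes; without it 21 of the 23 fell, against 29.7% of all genes, and the median was -0.73, with -0.05 over all genes.

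The 23 genes are taken below by role, in 3 groups made only to order the text. Of 5 genes of mitotic entry, 3 fell, beside 16.1% of all genes, and the other two did not pass the test. Among them Ccnb2, which encodes cyclin B2 (ENSMUSG00000032218.7, chr9:70407692-70421547, minus strand), had the lowest fold change. Ccnb2 was at 165, 158, 151 and 163 CPM in the unstimulated libraries and 67.7, 63.3, 42.1 and 61.8 CPM in the IL-33 stimulated libraries. Every stimulated library was below every unstimulated one, and the level was 2.71 times lower (log2 fold change -1.44, SE 0.14, adjusted p = 0.000203). Foxm1, the factor that switches on mitotic genes, was at 139.7, 156, 138 and 174 CPM in the unstimulated libraries and 77.0, 68.7, 34.5 and 60.1 CPM in the IL-33 stimulated libraries. It was 2.52 times lower without overlap (log2 fold change -1.33, SE 0.23, adjusted p = 0.00297). Ccna2, encoding cyclin A2, was at 344, 331, 318 and 318 CPM in the unstimulated libraries and 181, 184, 131 and 171 CPM in the IL-33 stimulated libraries, again without overlap (log2 fold change -0.97, SE 0.11, adjusted p = 0.000404). Exons on the opposite strand, foremost of Exosc9, overlap 12.5% of the exon bases of Ccna2. The kinase that these cyclins activate did not pass the test: Cdk1 was at 203, 179, 179.7 and 189 CPM in the unstimulated libraries and 173, 165, 94.4 and 156 CPM in the IL-33 stimulated libraries (log2 fold change -0.35, SE 0.18, adjusted p = 0.154). The 4 stimulated libraries lay below the 4 unstimulated ones, with replicate 3 far below the rest, and without that replicate the fold change was smaller and passed (-0.19, adjusted p = 0.0228). Ccnb1, encoding cyclin B1, was at 116, 112, 104 and 117 CPM in the unstimulated libraries and 117, 111, 82.6 and 102 CPM in the IL-33 stimulated libraries. Its groups overlapped (log2 fold change -0.12, SE 0.11, adjusted p = 0.42), also without replicate 3 (-0.03, adjusted p = 0.74). Of its 75-base stretches, 18.9% are shared with the pseudogene Ccnb1-ps, so part of its reads may be counted elsewhere.

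Of 9 genes of chromosome structure, the kinetochore and its checkpoint, 6 fell, beside 16.1% of all genes. Cenpf, a protein of the outer kinetochore, was at 187, 217, 208 and 239 CPM in the unstimulated libraries and 117, 97.6, 63.2 and 82.8 CPM in the IL-33 stimulated libraries. It was 2.35 times lower with no overlap (log2 fold change -1.23, SE 0.18, adjusted p = 0.00141). Top2a, the topoisomerase that untangles chromosomes, was at 1432, 1486, 1465 and 1487 CPM in the unstimulated libraries and 984, 942, 660.1 and 769 CPM in the IL-33 stimulated libraries. The 4 unstimulated libraries lay close together and above every stimulated one (log2 fold change -0.81, SE 0.13, adjusted p = 0.00239). Mki67, the proliferation marker that coats mitotic chromosomes, was at 899.8, 1219.8, 1025 and 1391 CPM in the unstimulated libraries and 788, 647, 363 and 536 CPM in the IL-33 stimulated libraries. Its groups did not overlap, but both varied widely (log2 fold change -0.96, SE 0.24, adjusted p = 0.0181). Cenpa, the histone variant of centromeres, also fell (log2 fold change -0.97, SE 0.17, adjusted p = 0.0036), while the kinetochore motor Cenpe did not pass (log2 fold change -0.49, SE 0.18, adjusted p = 0.0767). Of the spindle checkpoint kinases and their partners, Bub1b fell (log2 fold change -1.03, SE 0.17, adjusted p = 0.00257). Bub1 was at 91.4, 91.8, 86.3 and 101 CPM in the unstimulated libraries and 85.3, 82.2, 54.0 and 77.4 CPM in the IL-33 stimulated libraries and did not pass although its groups did not overlap (log2 fold change -0.31, SE 0.14, adjusted p = 0.127). Cdc20, the activator of the anaphase-promoting complex that the checkpoint holds back, did not pass (log2 fold change -0.45, SE 0.20, adjusted p = 0.113), and Ube2c, the ubiquitin-conjugating enzyme of that complex, fell (log2 fold change -0.63, SE 0.18, adjusted p = 0.0263). Exons of genes on the opposite strand overlap 22.8% of the exon bases of Ube2c, and the strand used in counting is not given in the sources used here.

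Of 9 genes of the spindle and of cell division, 6 fell, beside 16.1% of all genes. The microtubule-binding protein Nusap1 had the smallest adjusted p of the 46 genes. Nusap1 was at 227, 230.0, 217 and 226 CPM in the unstimulated libraries and 110.0, 107, 84.3 and 95.1 CPM in the IL-33 stimulated libraries, with both groups tight and far apart (log2 fold change -1.18, SE 0.09, adjusted p = 6.47e-05). The spindle motor Kif11 (log2 fold change -1.11, SE 0.16, adjusted p = 0.00128), the survivin gene Birc5 of the chromosomal passenger complex (log2 fold change -1.03, SE 0.14, adjusted p = 0.00108) and the spindle assembly factor Tpx2 (log2 fold change -0.78, SE 0.15, adjusted p = 0.00486) fell too. So did the motors of the central spindle, Kif23 (log2 fold change -0.87, SE 0.16, adjusted p = 0.00387) and Kif20a (log2 fold change -0.86, SE 0.14, adjusted p = 0.00253), although 29.3% of the exon bases of Kif20a lie under exons of Cdc23 on the other strand. The kinases Aurka, Aurkb and Plk1 did not pass. Aurka was at 80.8, 78.2, 80.4 and 85.2 CPM in the unstimulated libraries and 80.4, 79.5, 42.6 and 77.0 CPM in the IL-33 stimulated libraries. Replicate 3 alone was far below, and the 3 other stimulated libraries lay in or near the unstimulated range (log2 fold change -0.21, SE 0.19, adjusted p = 0.405). Aurkb, the kinase of the passenger complex, missed the threshold (log2 fold change -0.66, SE 0.22, adjusted p = 0.051), as did Plk1, a kinase of mitotic entry and spindle poles (log2 fold change -0.48, SE 0.20, adjusted p = 0.102). Without replicate 3, Aurkb (-0.47, adjusted p = 0.000635) and Plk1 (-0.30, adjusted p = 0.000306) passed, as did Cdc20, Bub1 and Cenpe, and only Aurka (-0.04, adjusted p = 0.537) and Ccnb1 did not. The fold changes of the 15 genes that had fallen were all closer to 0 without that library, with the same calls.

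The G1/S and replication genes were lower by less, and not all of them. Of the 23 genes, 8 fell and 0 rose, beside the 16.1% and 16.2% of all genes, and the median log2 fold change was -0.26. The 8 genes (Cdt1, Tk1, E2f1, Mcm6, Mcm2, Pcna, Mcm5 and Pola1) were 1.33 to 1.69 times lower, and 13 of the 23 genes had no overlap between groups, all of them lower, beside the 20.9% of all genes with that order. IL-33 stimulated replicate 3 was the lowest of its group for 20 of the 23 genes. Without it the 8 genes still fell with 4 more (Mcm7, Uhrf1, Dut and Rrm1), and 5 genes rose (Ccne1, Rrm2, Cdc45, Mcm10 and Cdc6), where 27.5% of all genes rose and 29.7% fell. The median was then -0.16, which lay 0.10 below the median of all genes, against 0.68 below for the G2/M genes.

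In origin licensing, Cdt1 (ENSMUSG00000006585.3, chr8:122568015-122573554, plus strand), the helicase loading factor with an E2F word printed above, had the lowest fold change of the list. Cdt1 was at 105, 112, 106 and 99.8 CPM in the unstimulated libraries and 71.0, 69.6, 43.1 and 66.1 CPM in the IL-33 stimulated libraries. Its groups were apart, with replicate 3 the lowest (log2 fold change -0.76, SE 0.15, adjusted p = 0.00624). Its partner Cdc6, with an E2F word as well, was at 131, 130.2, 128 and 136 CPM in the unstimulated libraries and 151, 148, 101 and 136 CPM in the IL-33 stimulated libraries and overlapped (log2 fold change 0.03, SE 0.12, adjusted p = 0.849). Without replicate 3 Cdc6 rose (0.15, adjusted p = 0.0344). Mcm2, a subunit of the replicative helicase, was at 412, 409.6, 385 and 396 CPM in the unstimulated libraries and 314, 309.6, 193 and 289.5 CPM in the IL-33 stimulated libraries (log2 fold change -0.53, SE 0.15, adjusted p = 0.0258). Mcm5, another subunit, was at 457, 437, 427 and 423 CPM in the unstimulated libraries and 350.5, 349.6, 233 and 339.5 CPM in the IL-33 stimulated libraries (log2 fold change -0.45, SE 0.13, adjusted p = 0.0301). Both fell with no overlap, as did Mcm6 (log2 fold change -0.54, SE 0.13, adjusted p = 0.016). The other subunits did not pass: Mcm7 (log2 fold change -0.46, SE 0.16, adjusted p = 0.0526), Mcm3 (log2 fold change -0.24, SE 0.16, adjusted p = 0.28) and Mcm4 (log2 fold change -0.23, SE 0.12, adjusted p = 0.163). Exons on the opposite strand, foremost of Ap4m1, overlap 12.6% of the exon bases of Mcm7. Mcm10, which helps to activate the helicase, had a log2 fold change of 0.11, Cdc45 of 0.12 and the GINS subunit Gins2 of -0.13, none of which passed. Gins2 cannot be read with confidence, since 67.3% of its exon bases overlap exons of Gse1 on the opposite strand.

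At the replication fork and in nucleotide supply the genes went different ways. Pcna, the sliding clamp, was at 617, 571, 561 and 562 CPM in the unstimulated libraries and 451, 445, 330.5 and 429.8 CPM in the IL-33 stimulated libraries. It was 1.39 times lower without overlap (log2 fold change -0.48, SE 0.11, adjusted p = 0.0103), with 13.8% of its 75-base stretches shared with the pseudogene Pcna-ps2, and Pola1, the catalytic subunit of the polymerase that primes synthesis, fell as well (log2 fold change -0.41, SE 0.07, adjusted p = 0.00257). Tk1, the thymidine kinase of S phase, was at 109, 110.4, 103 and 112 CPM in the unstimulated libraries and 75.4, 70.8, 52.9 and 65.3 CPM in the IL-33 stimulated libraries and fell without overlap (log2 fold change -0.71, SE 0.11, adjusted p = 0.00165). Tyms, the thymidylate synthase that makes the same nucleotide by another route, was at 139, 127, 121 and 122 CPM in the unstimulated libraries and 124, 124, 92.0 and 121 CPM in the IL-33 stimulated libraries and overlapped (log2 fold change -0.14, SE 0.11, adjusted p = 0.33). Rrm2, the regulated subunit of ribonucleotide reductase, was at 579, 532, 525 and 574 CPM in the unstimulated libraries and 698, 676, 450.1 and 647 CPM in the IL-33 stimulated libraries. Replicates 1, 2 and 4 were above every unstimulated library and replicate 3 was below them all (log2 fold change 0.16, SE 0.14, adjusted p = 0.386), and Rrm2 passed as higher without replicate 3 (0.29, adjusted p = 0.00164) and with voom (0.31, adjusted p = 0.000464). Its partner subunit Rrm1 (log2 fold change -0.26, SE 0.12, adjusted p = 0.123) and the dUTPase gene Dut (log2 fold change -0.35, SE 0.14, adjusted p = 0.104) did not pass.

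Of the regulators in the list, E2f1, an activator of the set, was at 70.7, 67.8, 73.0 and 69.5 CPM in the unstimulated libraries and 50.6, 52.9, 34.7 and 51.4 CPM in the IL-33 stimulated libraries. It fell with no overlap (log2 fold change -0.56, SE 0.13, adjusted p = 0.0124). The E-type cyclins did not pass. Ccne1, encoding cyclin E1, was at 53.1, 56.7, 51.1 and 57.9 CPM in the unstimulated libraries and 67.8, 66.9, 51.5 and 68.1 CPM in the IL-33 stimulated libraries. As for Rrm2, stimulated replicates 1, 2 and 4 were above the unstimulated libraries and replicate 3 was among them (log2 fold change 0.22, SE 0.10, adjusted p = 0.136), and without replicate 3 Ccne1 rose (0.31, adjusted p = 0.00117). Cdc45, a factor of the active helicase, had the pattern of Rrm2, with 74.9, 76.3, 72.0 and 79.9 CPM in the unstimulated libraries and 99.6, 91.6, 55.0 and 83.9 CPM in the IL-33 stimulated libraries (log2 fold change 0.12, SE 0.17, adjusted p = 0.586; without replicate 3 0.28, adjusted p = 0.00506). Ccne2, encoding cyclin E2, was at 70.4, 71.3, 63.6 and 68.8 CPM in the unstimulated libraries and 69.9, 72.8, 70.1 and 66.2 CPM in the IL-33 stimulated libraries, and its groups overlapped (log2 fold change 0.03, SE 0.06, adjusted p = 0.769), although 17.4% of its exon bases lie under exons of Ints8 on the other strand. The chromatin genes of S phase, Uhrf1 (log2 fold change -0.52, SE 0.21, adjusted p = 0.0914) and Hells (log2 fold change -0.09, SE 0.07, adjusted p = 0.321), did not pass.

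**Figure D2:**
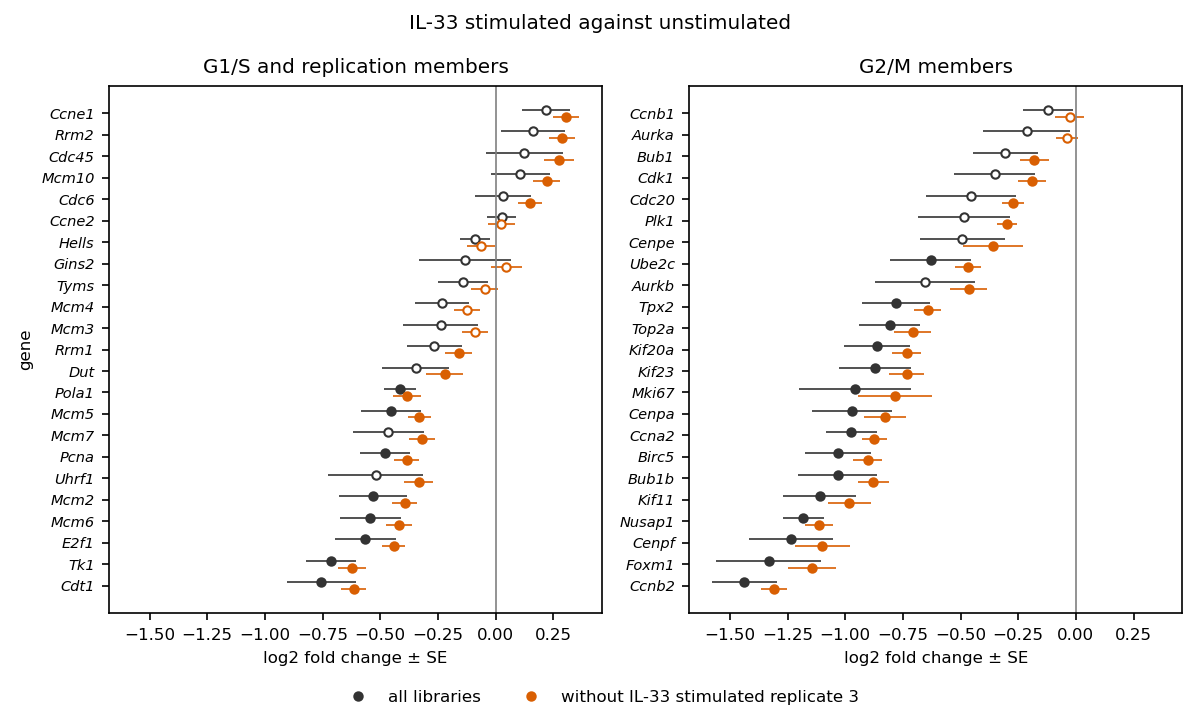
Log2 fold change of IL-33 stimulated against unstimulated ILC2s for each of the 46 genes, with bars of 1 SE, in all libraries (black) and without IL-33 stimulated replicate 3 (orange); filled points have an adjusted p under 0.05. All G2/M points lie below 0 and reach -1.44, whereas the G1/S and replication points lie between -0.76 and 0.22 in all libraries, and most orange points lie to the right of the black ones.

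The balance of the 2 sets can be read within each library, where no scaling between libraries enters. The counts on the 23 G2/M genes divided by those on the 23 G1/S and replication genes gave 0.958, 1.07, 1.03 and 1.15 in unstimulated libraries (mean 1.05 ± 0.0807, SD, n = 4) and 0.781, 0.726, 0.686 and 0.690 in IL-33 stimulated libraries (mean 0.721 ± 0.0441, SD, n = 4). The groups did not overlap, and replicate 3 lay close to replicate 4. In the 72 h cultures the ratio was 0.922, 1.10 and 0.996 in Control (mean 1.01 ± 0.0912, SD, n = 3) and 1.10, 1.04 and 1.04 in Blimp-1-deficient libraries (mean 1.06 ± 0.0322, SD, n = 3), and these groups overlapped. No test was made of this ratio, because the lists were drawn up with results of these data known. All 46 genes took 1.27% to 1.34% of the counts in unstimulated libraries and 0.926%, 0.883%, 0.595% and 0.782% in IL-33 stimulated libraries.

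**Figure D3:**
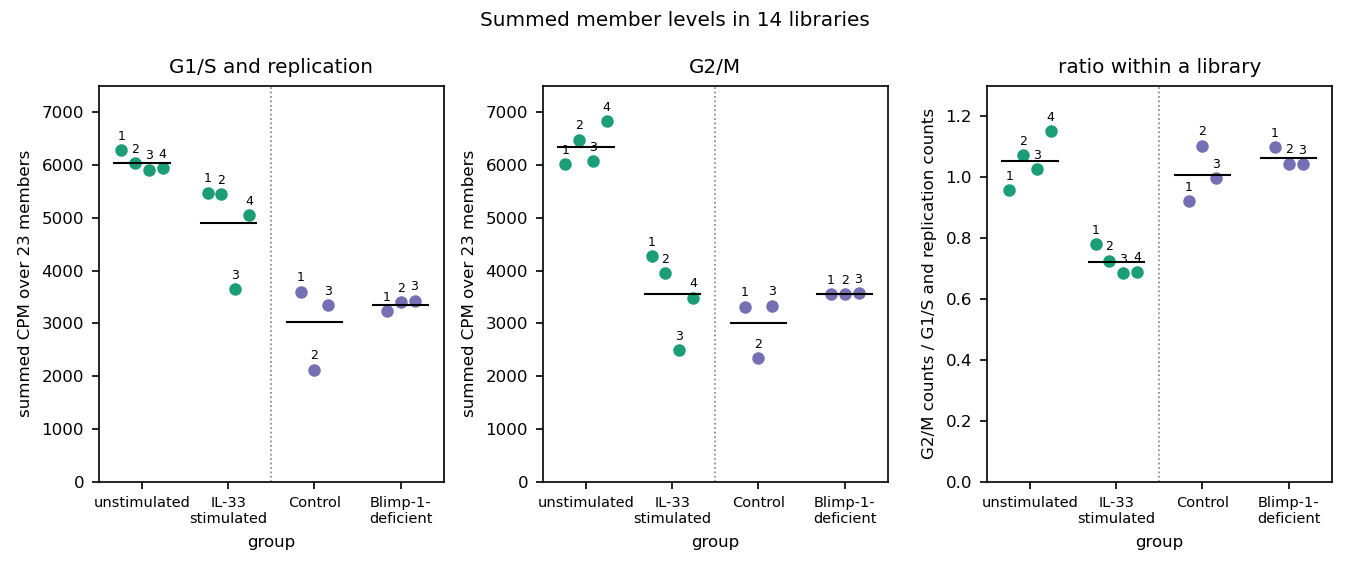
Summed CPM of the 23 G1/S and replication genes and of the 23 G2/M genes in each of the 14 libraries, and the ratio of G2/M to G1/S and replication counts within each library; numbers are replicates and lines are group means. The 4 stimulated ratios lie between 0.686 and 0.781, below the 4 unstimulated ratios of 0.958 to 1.15, while the Control and Blimp-1-deficient ratios overlap.

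Other genes of the same pathways were taken from lists of regulators and partners. Among 7 D-type cyclins and G1 kinases, Ccnd2 and Cdc25a rose and 0 fell, beside 16.2% and 16.1% of all genes. Ccnd2, encoding cyclin D2, was at 598, 543, 566 and 532 CPM in the unstimulated libraries and 877, 963, 715 and 936 CPM in the IL-33 stimulated libraries, and every stimulated library was above every unstimulated one (log2 fold change 0.64, SE 0.10, adjusted p = 0.00245). Cdc25a, the phosphatase that activates Cdk2, rose to a similar extent (log2 fold change 0.63, SE 0.11, adjusted p = 0.00391). Of 7 CDK inhibitors 6 were tested, and they moved in both directions. Cdkn1a, encoding p21, was at 182, 172, 209.7 and 187 CPM in the unstimulated libraries and 495, 567, 343 and 599.6 CPM in the IL-33 stimulated libraries and rose 2.67-fold without overlap (log2 fold change 1.42, SE 0.17, adjusted p = 0.000525). Cdkn2c, encoding p18, was at 133, 126, 133 and 116 CPM in the unstimulated libraries and 38.3, 42.3, 25.1 and 38.9 CPM in the IL-33 stimulated libraries and fell (log2 fold change -1.81, SE 0.16, adjusted p = 0.000111). Cdkn2a (log2 fold change -1.74, SE 0.23, adjusted p = 0.000838) and Cdkn1b, encoding p27 (log2 fold change -0.65, SE 0.12, adjusted p = 0.00388), fell as well. Without replicate 3, Cdk6 also rose (0.50, adjusted p = 3.86e-05) and Ccnd1 (-1.34, adjusted p = 0.00242), Ccnd3 (-0.15, adjusted p = 0.0281) and Cdkn1c (-1.84, adjusted p = 0.00118) fell.

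Of 17 pocket protein, E2F and MuvB genes, 1 rose and 9 fell, beside 16.2% and 16.1% of all genes, with a median log2 fold change of -0.36. E2f5, one of the repressor E2Fs, rose (log2 fold change 1.26, SE 0.16, adjusted p = 0.000781), and E2f2, an activator E2F, had the lowest value (log2 fold change -1.75, SE 0.20, adjusted p = 0.000385), followed by the repressor E2f7 (log2 fold change -1.15, SE 0.25, adjusted p = 0.00953). The retinoblastoma gene Rb1 also fell (log2 fold change -0.50, SE 0.06, adjusted p = 0.000489). Without replicate 3, 3 of the 17 rose (E2f4, E2f5 and Tfdp1) and 9 fell, beside 27.5% and 29.7% of all genes. Of 23 other replication genes, 2 rose and 7 fell with all libraries, beside 16.2% and 16.1% of all genes, with a median of -0.29. The 2 that rose were subunits of the origin recognition complex, Orc2 (log2 fold change 0.79, SE 0.14, adjusted p = 0.00304) and Orc3 (log2 fold change 0.32, SE 0.10, adjusted p = 0.0443), and the lowest were the polymerase delta subunit Pold1 (log2 fold change -0.86, SE 0.22, adjusted p = 0.0186) and the ligase Lig1 (log2 fold change -0.85, SE 0.13, adjusted p = 0.00208). Without replicate 3, 4 of these genes rose (Orc1, Orc2, Orc3 and Orc6) and 11 fell, beside 27.5% and 29.7% of all genes. Of 24 other mitosis genes, 0 rose and 19 fell with all libraries, beside 16.2% and 16.1% of all genes, with a median of -0.69. Without replicate 3, 0 rose and 22 fell, beside 27.5% and 29.7%. Cdc25b, the phosphatase that activates Cdk1 at mitotic entry, was at 216, 229, 214 and 243 CPM in the unstimulated libraries and 63.1, 53.6, 31.0 and 49.8 CPM in the IL-33 stimulated libraries and was 4.55 times lower (log2 fold change -2.19, SE 0.20, adjusted p = 0.000141). Prc1, which bundles the central spindle, followed (log2 fold change -1.31, SE 0.15, adjusted p = 0.000495), and the highest values were those of Pttg1 (log2 fold change 0.05, SE 0.16, adjusted p = 0.82) and Bub3 (log2 fold change -0.11, SE 0.10, adjusted p = 0.445).

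**Figure D4:**
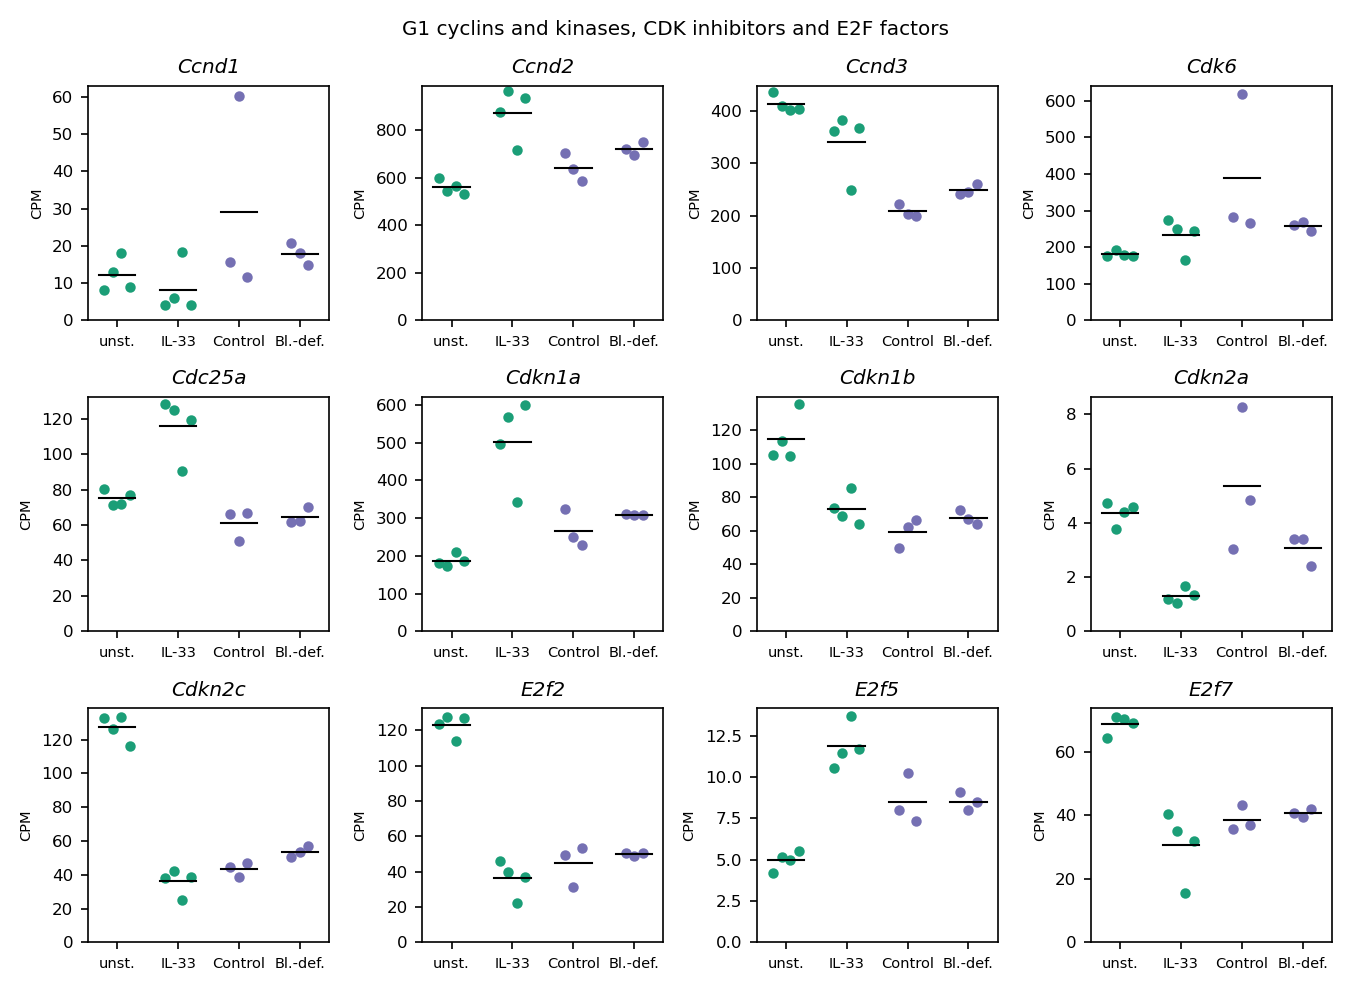
CPM in each library of 12 cell cycle genes, scaled within each experiment, with the groups (unst. for unstimulated, Bl.-def. for Blimp-1-deficient) on the horizontal axis, a point for each library and a line at the group mean. Cdkn2c, Cdkn2a and E2f2 are lower and Cdkn1a, Ccnd2 and E2f5 higher in all 4 IL-33 stimulated libraries than in the 4 unstimulated ones.

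Markers of other cell types moved with stimulation. The summed T cell markers (6 genes, with only Cd8b1 at 0 in 1 library) were at 48.5 to 58.0 CPM in unstimulated and 13.3 to 25.3 CPM in IL-33 stimulated libraries, and 2 of the 6 fell, beside 16.1% of all genes. The 6 epithelial and stromal markers summed to 396 to 626 CPM and 218 to 400 CPM, but their members went both ways: the epithelial gene Epcam (-4.50, adjusted p = 6.59e-06) and the collagen gene Col1a2 (-1.55, adjusted p = 0.00138) fell, and the endothelial gene Pecam1 rose (0.99, adjusted p = 0.00311). Cd79b, a part of the B cell receptor, rose as well (0.53, adjusted p = 0.0168). The 7 myeloid markers summed to 89.6 to 204 CPM and 46.1 to 119 CPM. Of the 10 ILC2 markers 8 fell, beside the same 16.1%. IL-33 stimulated replicate 3 had Csf1r at 27.2 CPM, against 0.486 to 3.33 CPM in the other 7 libraries of that experiment. Col1a1 was at 237 CPM there, against 55.7 to 67.7 CPM in the other 3 stimulated libraries. Adgre1 (3.35 CPM) and C1qb (1.08 CPM) were also highest in that library. Other markers of the same lists were not raised: Itgax (7.09 CPM), Cd68 (7.58 CPM) and Pecam1 (109 CPM) were the lowest of the stimulated libraries. Lyz2 (72.7 CPM) and Col1a2 (51.4 CPM) lay within the range of the other stimulated libraries. The part of these levels in the lower G2/M transcripts was not tested.

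Loss of Blimp-1 was not accompanied by a call in any of the 46 genes when all 6 libraries were used. Of the 23 G1/S and replication genes and the 23 G2/M genes, 0 rose and 0 fell by edgeR, where 0.450% of 17335 genes rose and 0.306% fell, and DESeq2 also called 0 of the 46, where it called 3.24% of all genes higher and 3.20% lower. At an unadjusted p under 0.05, 0 G1/S and replication genes and 2 G2/M genes were higher and 0 lower, beside 6.17% and 5.78% of all genes. The median log2 fold changes were 0.12 and 0.17, against -0.02 over all genes. These medians rest on Control replicate 2, which was the lowest Control library for 22 of the 23 G1/S and replication genes and 21 of the 23 G2/M genes. Without it the medians were 0.01 and 0.04, against 0.01 over all genes, and 11 and 8 genes of the lists changed sign.

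Without Control replicate 2, 0 of the 23 G1/S and replication genes were called and 5 of the 23 G2/M genes rose, where 8.25% of all genes rose and 5.72% fell. Kif23, a motor needed for the last step of cell division, with its TTTGAA stretch printed above, had the highest fold change. Kif23 was at 62.5, 30.9 and 57.2 CPM in Control and 84.6, 82.3 and 82.3 CPM in Blimp-1-deficient cells. Every Blimp-1-deficient library was above every Control library, and replicate 2 was far below Control replicates 1 and 3 (log2 fold change 0.70, SE 0.24, adjusted p = 0.315; without it 0.48, adjusted p = 0.0049). Cenpf was at 86.4, 64.1 and 93.2 CPM in Control and 113, 106 and 108 CPM in Blimp-1-deficient cells (log2 fold change 0.42, SE 0.15, adjusted p = 0.326; without replicate 2 0.29, adjusted p = 0.0237). Top2a was at 621, 388 and 621 CPM in Control and 727, 725 and 749 CPM in Blimp-1-deficient cells (log2 fold change 0.43, SE 0.20, adjusted p = 0.481; without replicate 2 0.25, adjusted p = 0.0427). Both were higher in each Blimp-1-deficient library than in any Control library. Nusap1 was at 95.2, 50.4 and 93.8 CPM in Control and 108, 112 and 109.5 CPM in Blimp-1-deficient cells (log2 fold change 0.44, SE 0.23, adjusted p = 0.543; without replicate 2 0.23, adjusted p = 0.0327). Aurkb was at 59.4, 38.2 and 60.5 CPM in Control and 69.7, 71.6 and 71.4 CPM in Blimp-1-deficient cells (log2 fold change 0.41, SE 0.17, adjusted p = 0.426; without replicate 2 0.25, adjusted p = 0.021). In these 2 genes as well, each Blimp-1-deficient library was above each Control library. These 5 genes, of which Aurkb and Cenpf are named because they passed, were 1.17 to 1.40 times higher than Control replicates 1 and 3. Marker genes differed in the same fit. Of the 10 ILC2 markers, 4 rose (Icos, Il7r, Rora and Thy1) and 4 fell (Klrg1, Il1rl1, Ptprc and Id2), beside the 8.25% and 5.72% of all genes. Of the 7 myeloid markers 3 rose, namely Adgre1 (1.87, adjusted p = 0.00427), C1qa and C1qb, with C1qa at 0 and 0.190 CPM and C1qb at 0 and 0.0634 CPM in Control replicates 1 and 3. Eomes, a factor of NK cells, fell (-2.67, adjusted p = 0.00327) and had also fallen with all 6 libraries (-2.65, adjusted p = 0.0398). Its level was low, with a mean of 2.28 CPM in Control and 0.363 CPM in Blimp-1-deficient cells with all libraries. The NK cell marker Ncr1 went the other way without passing (2.49, adjusted p = 0.116), and Klrb1c did not pass (-0.29, adjusted p = 0.85). Pecam1 rose (1.15, adjusted p = 0.000675). The epithelial and stromal markers summed to 166 and 282 CPM in Control replicates 1 and 3 and to 410 to 619 CPM in Blimp-1-deficient libraries, and the myeloid markers to 33.4 and 129 CPM and to 33.8 to 117 CPM. The part of these levels in the 5 genes was not tested.

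Without Control replicate 2 the other 18 G2/M genes had log2 fold changes of -0.16 to 0.19 and did not pass. Foxm1 was at 64.3, 64.8 and 66.2 CPM in Control and 71.1, 73.0 and 77.9 CPM in Blimp-1-deficient cells, without overlap and with no lower value in Control replicate 2 (log2 fold change 0.18, SE 0.08, adjusted p = 0.422; without it 0.19, adjusted p = 0.071). Mki67 was at 453, 473 and 557 CPM in Control and 634, 509 and 529 CPM in Blimp-1-deficient cells and overlapped (log2 fold change 0.17, SE 0.14, adjusted p = 0.72). Ccnb1 was at 113, 64.3 and 101 CPM in Control and 88.4, 101 and 95.7 CPM in Blimp-1-deficient cells and Cdk1 at 129.6, 80.1 and 121 CPM in Control and 115, 128 and 126 CPM in Blimp-1-deficient cells. In both, Control replicate 2 was the lowest of the 6 libraries, and Control replicates 1 and 3 overlapped with the Blimp-1-deficient libraries (log2 fold changes 0.02 and 0.15). The 3 lowest fold changes of the list were those of Aurka, at 84.4, 58.0 and 73.0 CPM in Control and 65.3, 74.7 and 71.8 CPM in Blimp-1-deficient cells (log2 fold change -0.03, SE 0.15, adjusted p = 0.969), of Ccnb1, and of Plk1, at 126, 91.1 and 109.5 CPM in Control and 101, 116 and 116 CPM in Blimp-1-deficient cells (log2 fold change 0.02, SE 0.14, adjusted p = 0.979). In 8 of the 23 genes no library overlapped, all of them higher, beside 11.8% of all genes, and the same number lay above Control replicates 1 and 3, with 2 below them, beside 24.4% and 26.7% of all genes.

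For each of the 23 G1/S and replication genes the groups overlapped. The 3 highest fold changes were those of Mcm3, Tyms and Pcna. Mcm3 was at 234, 121 and 219 CPM in Control and 233, 254 and 255 CPM in Blimp-1-deficient cells (log2 fold change 0.37, SE 0.24, adjusted p = 0.641; without replicate 2 0.14, adjusted p = 0.215). Tyms was at 85.1, 45.3 and 72.4 CPM in Control and 78.4, 86.1 and 86.8 CPM in Blimp-1-deficient cells (log2 fold change 0.29, SE 0.22, adjusted p = 0.678), and Pcna was at 277, 106 and 251 CPM in Control and 242, 263 and 270.4 CPM in Blimp-1-deficient cells (log2 fold change 0.28, SE 0.33, adjusted p = 0.807). In all 3, Control replicates 1 and 3 were near the Blimp-1-deficient libraries. The lowest were Rrm2, at 529.5, 280.3 and 467 CPM in Control and 426, 454 and 438 CPM in Blimp-1-deficient cells (log2 fold change 0.04, SE 0.23, adjusted p = 0.977), Rrm1, at 375, 230.2 and 330.4 CPM in Control and 304, 329.9 and 333 CPM in Blimp-1-deficient cells (log2 fold change 0.05, SE 0.19, adjusted p = 0.967), and Mcm2, at 207, 128 and 198 CPM in Control and 173, 188 and 191 CPM in Blimp-1-deficient cells (log2 fold change 0.05, SE 0.19, adjusted p = 0.966). Without Control replicate 2 these were Rrm2 (-0.17, adjusted p = 0.182), Rrm1 (-0.12, adjusted p = 0.339) and Mcm2 (-0.13, adjusted p = 0.226). The genes of other steps were as close. E2f1 was at 32.4, 33.4 and 36.6 CPM in Control and 34.2, 36.8 and 38.8 CPM in Blimp-1-deficient cells (log2 fold change 0.10, SE 0.10, adjusted p = 0.761). Ccne1 was at 43.7, 25.6 and 38.0 CPM in Control and 41.0, 39.1 and 43.0 CPM in Blimp-1-deficient cells and Ccne2 at 49.96, 37.5 and 48.7 CPM in Control and 49.6, 53.7 and 55.1 CPM in Blimp-1-deficient cells (log2 fold changes 0.18 and 0.21). Mcm5 was at 235, 157 and 215 CPM in Control and 205, 225 and 219.7 CPM in Blimp-1-deficient cells and Cdc6 at 77.5, 44.1 and 75.9 CPM in Control and 75.7, 75.9 and 82.7 CPM in Blimp-1-deficient cells (log2 fold changes 0.10 and 0.23), again with overlap. Without replicate 2 no fold change of the 23 genes exceeded 0.17 in size, and in 4 genes every Blimp-1-deficient library was below Control replicates 1 and 3, and in 0 above, beside 26.7% and 24.4% of all genes.

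**Figure D5:**
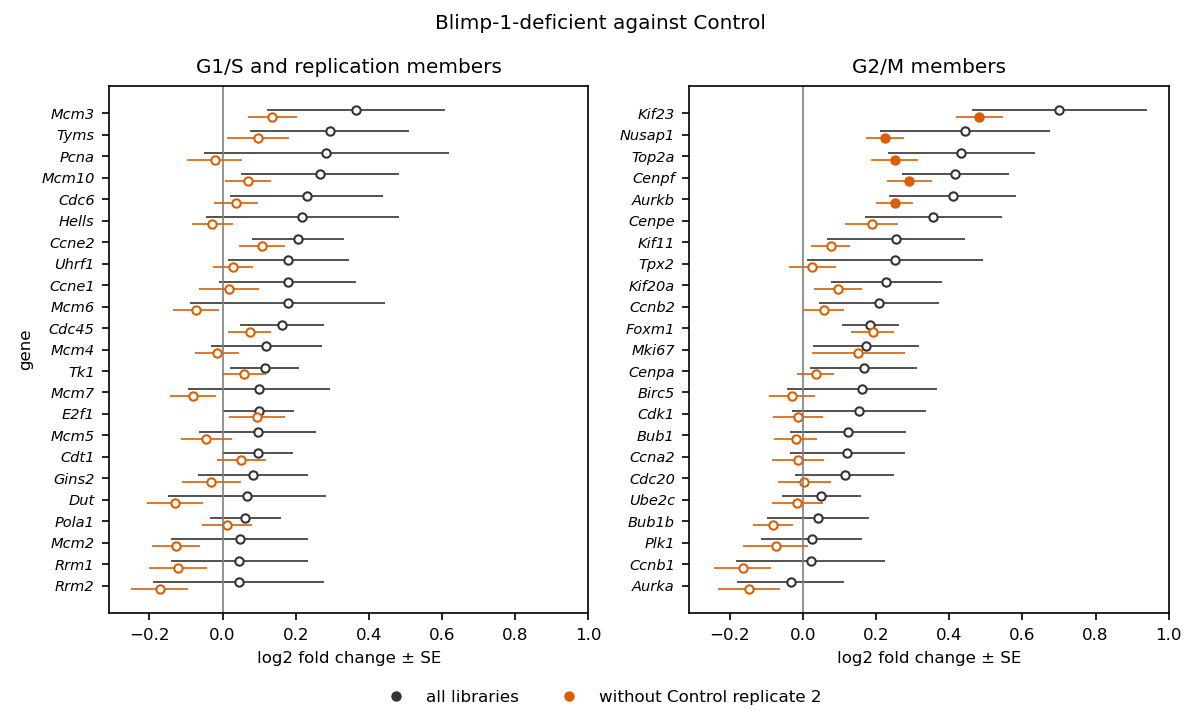
Log2 fold change of Blimp-1-deficient against Control ILC2s for each of the 46 genes, with bars of 1 SE, in all libraries (black) and without Control replicate 2 (orange); filled points have an adjusted p under 0.05. No black point is filled, most orange points lie to the left of the black ones, and the 5 filled orange points are the G2/M genes Kif23, Cenpf, Aurkb, Top2a and Nusap1.

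The other lists gave 0 calls in the Blimp-1 comparison with all libraries. Without Control replicate 2, 4 of their 78 genes passed, 1 higher and 3 lower, beside 8.25% and 5.72% of all genes. They are named for that reason: Orc4 rose (0.24, adjusted p = 0.0411), and Orc2 (-0.54, adjusted p = 0.00558), the CDK inhibitor Cdkn2d (-0.42, adjusted p = 0.0217) and the repressor E2f4 (-0.22, adjusted p = 0.0353) fell. The D-type cyclin Ccnd1 was at 15.7, 60.2 and 11.5 CPM in Control and 20.8, 18.1 and 14.9 CPM in Blimp-1-deficient cells and its kinase Cdk6 at 282, 617 and 265 CPM in Control and 259, 268 and 245 CPM in Blimp-1-deficient cells. In both, Control replicate 2 was the one high library of the 6, and the log2 fold change moved from -0.62 to 0.41 and from -0.59 to -0.08 without it. The same library had Col1a1 at 2171 CPM, against 48.1 to 268 CPM in the other Control and Blimp-1-deficient libraries. Its epithelial and stromal markers summed to 3543 CPM. Col1a2 was at 1337 CPM there, while Pecam1 (31.7 CPM) and Epcam (3.65 CPM) were the lowest of the 6 libraries. The part of these levels in the cell cycle levels of Control replicate 2 was not tested.

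Levels in the 24 h and 72 h cultures can only be set side by side, since the experiments differ in genotype, cytokines, time and table, and these cannot be told apart. They are given as TPM, which also corrects for gene length, as group means without IL-33 stimulated replicate 3 and Control replicate 2, of 4, 3, 2 and 3 libraries in the order given, and with no test. The 23 G1/S and replication genes summed to 5184 to 5283 TPM in unstimulated, 3438 to 4034 in IL-33 stimulated, 3331 and 3436 in Control and 3369 to 3510.4 TPM in Blimp-1-deficient libraries. The 23 G2/M genes summed to 4034 to 4707, 1944 to 2445, 2745 and 2770.0, and 2940.2 to 3099.8 TPM. The mean TPM of all 23 genes of either list was lower in IL-33 stimulated than in unstimulated cells, also for the genes whose CPM rose without replicate 3, and on log2(TPM + 1) the median change of all genes was -0.25, against 0.06 in the count fit, both with all libraries. Control was below IL-33 stimulated cells in 20 of the 23 G1/S and replication genes, the exceptions being Cdt1, Rrm2 and Tk1, but in 2 of the 23 G2/M genes, Top2a and Kif23. With IL-33 stimulated replicate 3 kept, these counts were 14 and 0, and with all libraries kept 23 and 14. Against unstimulated cells, Control was lower in all 23 and in 21 of 23, the exceptions being Ccnb1 and Aurka, and with all libraries kept in 23 and 23.

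The most abundant members per length in unstimulated cells were Pcna, Rrm2 and Top2a. Pcna was at 833 TPM in unstimulated, 516 in IL-33 stimulated, 420.4 in Control and 432 in Blimp-1-deficient cells. Rrm2 was at 689.8, 682, 688 and 637 TPM, the flattest of the 3 across the groups. Top2a was at 564 ± 28.4 (SD, n = 4), 280.0, 264 and 328 ± 16.5 TPM (SD, n = 3). Ccnb2 was at 360.4 ± 12.8 (SD, n = 4), 118, 202 and 219 ± 4.65 TPM (SD, n = 3), higher in the 72 h cultures than in the stimulated 24 h cultures, and Foxm1 at 91.4, 33.5, 43.5 and 51.7 TPM had the same order. Ccnb1 was at 92.0, 73.2, 97.2 and 90.4 TPM, with no group far from the others.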

How the data were processed

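RNA of sorted lung ILC2s was amplified with SMART-seq v4 and sequenced from Nextera XT libraries as 75-base paired reads. By the methods of the study, the authors removed adaptors (cutadapt), mapped to GRCm38 (HISAT2) and counted reads per gene (Subread); the deposited count tables hold these raw counts, 1 column per library. The submitters' processing notes name Bowtie2, Subread, DESeq2 and mm10. The deposited TPM values were made by the authors from the counts and gene lengths, in a table per experiment. The annotation printed is GENCODE M21 on GRCm38. An error in alignment or strand setting would change genes that share sequence or exons with another gene. Over 5% of exon bases were overlapped on the opposite strand in 8 of the 46 genes. These were Ccna2, Ccne2, Cdc45, Gins2, Kif20a, Mcm7, Plk1 and Ube2c.

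Counts of each experiment were tested apart with the edgeR (4.0.16) quasi-likelihood test in R 4.3.3, with TMM scaling, filterByExpr, no block, 2-sided p-values and Benjamini-Hochberg adjustment over all genes at 0.05. Alternatives were DESeq2 (1.42.0), voom and limma (3.58.1), other scalings and filters, log2(TPM + 1) and log2(TPM + 0.1), a replicate block and leaving out each library. The code was tested on simulated counts. Libraries held 10470125 to 76448945 counts. Groups came from the labels, and each library is from a mouse of its own by the design text, or from 2 pooled animals by legends of the paper. The members and all gene lists were chosen with earlier results of these data known, so no p-value is given over a list. Of the members, 14 that stand for the steps of the cycle are given with all library values. So are, per list and comparison, the 3 genes with the highest and the 3 with the lowest fold change. Added to these were Ccna2 and Nusap1 in the stimulation comparison and Cenpf and Aurkb in the Blimp-1 comparison. Other members are named where a count is broken down.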

Additional observations from a re-analysis of the deposited data

Results flagged for a closer look

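In the 50 groups of 4 libraries examined, 5 genes had 1 library far from the other 3 of its group, by more than Dixon's 95% critical value allows, and chance flags about 1 in 20 groups. In all 5 it was IL-33 stimulated replicate 3, which was the lowest library: Aurka was at 42.6 CPM there, against 77.0, 79.5 and 80.4 CPM in the other stimulated libraries. Ccne1 was at 51.5 CPM, against 66.9, 67.8 and 68.1 CPM. E2f1 was at 34.7 CPM, against 50.6, 51.4 and 52.9 CPM. Mcm5 was at 233 CPM, against 339.5, 349.6 and 350.5 CPM. Tyms was at 92.0 CPM, against 121, 124 and 124 CPM. Groups of 3 libraries were not examined in this way.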

How the results depend on the processing

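Values under other settings were tallied for 21 genes of the stimulation comparison, the members given there with all library values, without Ccna2 and Nusap1. The other members are not in this tally. They include Aurkb, Plk1, Cdc20, Cenpe, Mcm7, Uhrf1, Dut and Rrm1, which passed newly without IL-33 stimulated replicate 3. Of the 378 values tallied, 343 kept their side of the threshold without a reversed call, among them 16 with no call whose sign changed. Of the others, 25 passed newly, 8 no longer passed and 2 reversed. The 2 are Ccne2 with limma on log2(TPM + 1) (-0.30, adjusted p = 0.0214) and on log2(TPM + 0.1) (-0.30, adjusted p = 0.0217), against 0.03 in edgeR. In the Blimp-1 comparison the same rule gave 20 genes. Of the 320 values of these 20 genes, 316 kept their side of the threshold, among them 21 with no call whose sign changed, and 4 passed newly. Cenpf and Aurkb, which passed without Control replicate 2, are not in this count, and neither are the other members.

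The number of G1/S and replication genes that fell in IL-33 stimulated cells was 8 in edgeR, 15 with library size alone, 5 with no filter on low counts, and 17 with limma on log2(TPM + 1) and on log2(TPM + 0.1). The number that rose was 0 in edgeR, 5 with voom and sample weights, and 0 to 5 when each library was left out, with 1 without unstimulated replicate 2 or 4 and 5 without IL-33 stimulated replicate 3. With TPM, the medians were -0.61 and -0.61 for these genes and -1.20 and -1.21 for the G2/M genes, while all genes shifted to -0.25 and -0.29, so that relative to all genes the medians were -0.36 and -0.32, and -0.95 and -0.92. Of all genes, 2508 rose and 2484 fell in edgeR, 1805 and 3691 with library size alone, 4556 and 4877 with voom, and 1032 and 4655 on log2(TPM + 1); the cause was not tested.

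In the Blimp-1 comparison the medians of the G1/S and replication genes were 0.55 with library size alone and 1.73 and 1.92 with TPM, and those of the G2/M genes 0.58, 1.81 and 1.95. All genes shifted to 0.45, 1.28 and 1.69 there, so that the medians relative to all genes were 0.10, 0.44 and 0.23, and 0.13, 0.52 and 0.26. The number of G2/M genes that rose was 0 in edgeR, 1 with voom, and 0 to 5 when each library was left out, with 5 without Control replicate 2. Of all genes, 78 rose and 53 fell in edgeR, 557 and 551 in DESeq2, 149 and 107 with a mean count of at least 50, 1295 and 926 with voom, and 1483 and 1027 without Control replicate 2.

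By the design text, same-numbered libraries are of different mice. Deviations of same-numbered libraries correlated at -0.15 to 0.28 in the stimulation experiment and at -0.15 to 0.14 in the Blimp-1 experiment. In the former, 3 of the 4 pairs were at 0.18 to 0.28 and 1 at -0.15. With a replicate block, 8 G1/S and replication and 16 G2/M genes fell in IL-33 stimulated cells and 0 rose, and 1802 of all genes rose and 1898 fell there. With loss of Blimp-1 the block gave 0 and 0 genes, where 1380 had an unadjusted p under 0.05. The medians of both lists under the block were -0.28 and -0.88 in the stimulation comparison and 0.14 and 0.19 in the Blimp-1 comparison. Control replicate 2 had 3743445 counts outside 4 loci, and the part of depth in its difference from the other libraries was not tested.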
